A study of Mus musculus with 2 samples.

Results

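The type 1 interferon γ programme was described in mouse γδ T cells through 9 genes chosen by name from a table of 24091 genes. The members were 4 transcription factors (Tbx21, Eomes, Runx3 and Hlx), the cytokine gene Ifng, both chains of the interferon γ receptor (Ifngr1 and Ifngr2) and both chains of the interleukin 12 (IL-12) receptor (Il12rb1 and Il12rb2). All 9 were found in the table. RNA-seq read counts were available for 1 library labelled freshly isolated and 1 library labelled IL-2 expanded, both from γδ T cells of mouse spleen. The labels describe expansion for 5 days in IL-2 at 100 U/ml after activation through CD3, by antibody on the plate, and CD28, by antibody in solution, and this text is worded alike for both libraries. The freshly isolated library (fresh below) was read as uncultured from its treatment label alone. Activation, culture and IL-2 therefore came together in the expanded library and cannot be told apart. Strain, age, sex and the number of mice are not given in the sources used here.

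γδ T cells carry an antigen receptor of a γ and a δ chain, and many in the spleen make interferon γ soon after stimulation. In the type 1 programme, IL-12 from myeloid cells binds a receptor of the chains Il12rb1 and Il12rb2 and activates STAT4, and the T-box factors T-bet (encoded by Tbx21) and Eomes, together with Runx3 and Hlx, act on Ifng. Secreted interferon γ binds Ifngr1, which holds the ligand, paired with Ifngr2, which is needed for the signal through JAK1 and JAK2. Ifngr2 is known from earlier work on helper T cells as the chain that is lost in type 1 effectors, and Il12rb2 as the chain that antigen receptor signals induce.

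The 4 promoter windows below are shown because they belong to the members whose levels the results turn on. Il12rb2 and Ifngr2 stood furthest apart between the libraries, Ifngr1 was lower together with Ifngr2, and Ifng is the cytokine on which the factors act. Each window runs from 250 bases before to 50 bases after the start site and was taken from RefSeq on build GRCm38.p6, in the direction of transcription. The windows are chr6:67376139-67376438 (minus strand) for Il12rb2, chr10:118440796-118441095 (plus) for Ifng, chr10:19591699-19591998 (plus) for Ifngr1 and chr16:91546809-91547108 (plus) for Ifngr2. Capitals mark matches on either strand to the STAT motif TTCNNNGAA, the T-box motif TCACACC or the Runx motif TGTGGT.
Il12rb2: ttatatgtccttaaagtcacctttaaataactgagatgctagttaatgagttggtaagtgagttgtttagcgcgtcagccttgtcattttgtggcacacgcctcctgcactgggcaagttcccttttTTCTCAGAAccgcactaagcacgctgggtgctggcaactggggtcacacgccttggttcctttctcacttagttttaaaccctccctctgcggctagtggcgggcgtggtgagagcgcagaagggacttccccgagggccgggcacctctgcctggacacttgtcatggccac
Ifng: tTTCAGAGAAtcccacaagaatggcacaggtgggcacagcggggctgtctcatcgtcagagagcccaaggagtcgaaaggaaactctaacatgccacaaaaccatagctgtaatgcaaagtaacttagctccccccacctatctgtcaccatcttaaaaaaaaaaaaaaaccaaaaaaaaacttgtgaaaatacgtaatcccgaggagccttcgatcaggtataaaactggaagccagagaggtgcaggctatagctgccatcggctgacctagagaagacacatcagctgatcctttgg
Ifngr1: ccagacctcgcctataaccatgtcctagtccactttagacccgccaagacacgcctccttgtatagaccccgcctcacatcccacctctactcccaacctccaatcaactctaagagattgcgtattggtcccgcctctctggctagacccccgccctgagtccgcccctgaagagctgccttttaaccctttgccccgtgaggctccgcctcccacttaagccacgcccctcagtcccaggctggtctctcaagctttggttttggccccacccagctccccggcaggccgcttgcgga
Ifngr2: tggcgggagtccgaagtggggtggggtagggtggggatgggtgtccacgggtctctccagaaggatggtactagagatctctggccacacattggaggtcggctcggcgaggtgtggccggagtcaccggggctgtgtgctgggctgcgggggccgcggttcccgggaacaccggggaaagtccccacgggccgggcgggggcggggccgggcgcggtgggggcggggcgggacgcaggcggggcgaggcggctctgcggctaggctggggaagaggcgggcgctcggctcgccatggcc

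The Il12rb2 window held 1 match to the STAT motif (TTCTCAGAA), which began 123 bases before the start site. The Ifng window held 1 as well (TTCAGAGAA), at 249 bases before the start site, and no motif of the 3 matched in the windows of Ifngr1 and Ifngr2. Among 32817 promoter windows of the same length, 8.29% held the STAT motif, 3.98% the T-box motif and 16.8% the Runx motif. Of the 8 members with a window in the table (Il12rb1 had none), Runx3 held 2 matches to the Runx motif in 1 of its 2 windows, and Tbx21, Eomes and Hlx held none. No matches overlapped. CpG dinucleotides numbered 31 in the Ifngr2 window, 14 in that of Ifngr1, 12 in that of Il12rb2 and 7 in that of Ifng, against a median of 7 over all windows. These matches describe letters in the windows and no binding was measured.

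Among the 9 members, the 4 receptor chains differed most between the libraries. Both IL-12 receptor chains were higher in the expanded library and both interferon γ receptor chains were lower, whereas Ifng, Eomes and Runx3 were at nearly the same level in both. Levels are given as CPM, counts per 1000000 of the TMM-scaled library size. The total count was 20379385 in the fresh and 22204099 in the expanded library, so 1 count was worth 0.0465 and 0.0476 CPM. With 1 library in each group no difference was tested and none has a replicate check. The intervals are exact 95% Clopper-Pearson intervals and, since without molecular identifiers a read is not an independent molecule, they cover counting error only.

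Among the 9 members, 3 were higher by 2-fold or more in the expanded library (Hlx, Il12rb1 and Il12rb2), where 22.4% of the 11715 genes averaging 1 CPM or more were. The members lower by 2-fold or more were Ifngr1 and Ifngr2, 2 of 9 or 22.2%, where 25.0% of all genes measured were. The other 4 lay within 2-fold, as did 52.6% of all genes. These shares are near the background, so the counts say nothing particular about the members. The shares of all genes are also the background for the lists and neighbourhoods below. All 5 members past 2-fold were also past 4-fold, which 8.92% of all genes were upward and 13.5% downward. Log2 folds (prior count of 2) are of expanded over fresh, and their median was -0.03 over the members and 0.04 over all genes measured.

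**Figure D1:**
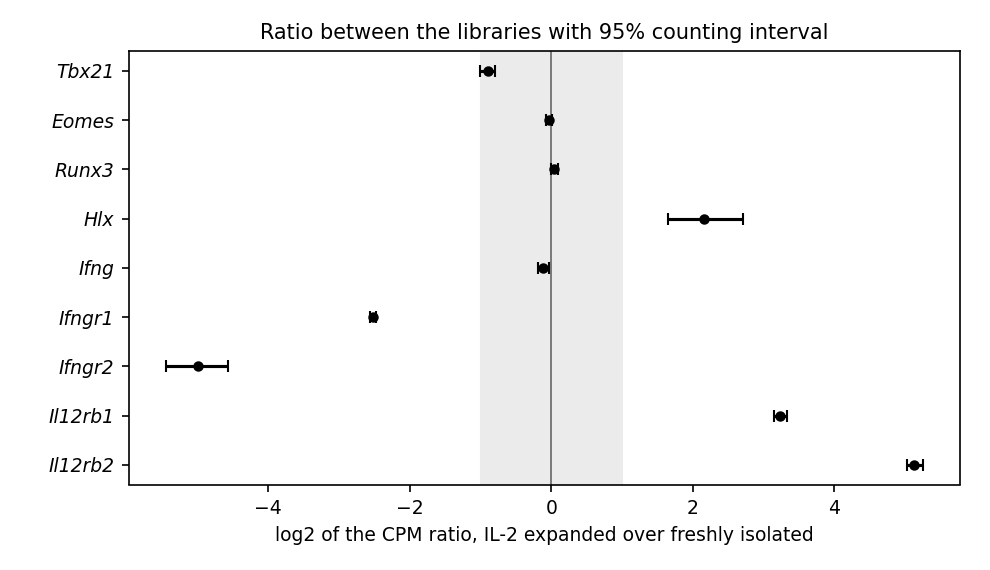
Ratio of CPM between the expanded and the fresh library for each of the 9 genes, on a log2 axis, with exact 95% counting intervals as bars and the range within 2-fold shaded. Il12rb2 (35.05-fold higher) and Ifngr2 (31.7-fold lower) stand at opposite ends, and Eomes, Runx3 and Ifng lie close to 0.

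Among the transcription factors, 1 of 4 was past 2-fold. Tbx21 (chromosome 11, 97098007 to 97115331, minus strand, build GRCm38 as in the deposited table), which encodes T-bet, the factor that defines type 1 helper cells, had 2287 counts in the fresh library and 1196 in the expanded one. This was 106 and 56.9 CPM, 1.87-fold lower after expansion (interval 1.74 to 2.004). Scaled by total count, Tbx21 was past 2-fold lower, with a log2 fold of -1.06. Its position close to the 2-fold line therefore depended on the scaling.

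Eomes (chromosome 9, 118478189 to 118486132), the T-box relative of T-bet that is prominent in memory CD8 T cells and NK cells, had 7971 and 7615 counts. The levels of 370.3 and 362.2 CPM differed by 1.02-fold, and the interval of the ratio (0.948 to 1.01) included no change. Runx3 (chromosome 4, 135120645 to 135177990), a Runt-domain factor that acts with T-bet on Ifng and silences Cd4, had 5674 and 5705 counts, or 264 and 271 CPM. Its ratio of 1.03 (interval 0.992 to 1.07) also included no change, and its log2 fold ran from -0.12 to 0.04 over the scalings, changing sign in 4 of 7 alternatives.

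Hlx (chromosome 1, 184727145 to 184732493), a homeobox factor that T-bet induces in type 1 helper cells, had only 38 and 166 counts. At 1.77 and 7.90 CPM it was 4.47-fold higher in the expanded library (interval 3.13 to 6.54), the widest interval relative to its ratio among the higher members. It ranked 975 of 11715 genes from the top by log2 fold. Its mean of 4.83 CPM was the lowest of the 9.

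Because a ratio of 2 genes within a library does not depend on how the libraries are scaled, pairs of members were also compared directly. Tbx21 was lower relative to Eomes. The ratio of Tbx21 to Eomes per kb of gene length was 0.470 in fresh and 0.257 in expanded cells, 1.83-fold lower (interval 1.69 to 1.97). Hlx to Tbx21 stood at 0.0197 and 0.165, 8.35-fold higher (interval 5.79 to 12.3). Runx3 to its relative Runx1 stood at 7.64 and 30.8, 4.03-fold higher (interval 3.59 to 4.52), where Runx1 alone had 77.3 and 19.7 CPM.

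NK cells express Tbx21, Eomes and Ifng as well, so their markers are given beside these values. Of 12 NK cell markers measured, 8 were lower by 2-fold or more in the expanded library and 2 were higher. The summed CPM over 15 such genes was 1319 in fresh and 1349 in expanded cells, with Klra4 at 0 counts in both and Klra8 at 0 in the expanded library. The activating receptor gene Ncr1, a defining NK marker, stood at 24.6 and 0.190 CPM and Klri2 at 59.6 and 1.28 CPM. The granule gene Nkg7 (374 and 793 CPM) and the receptor gene Cd244 (57.3 and 257 CPM) were higher. Together with Cd160 (188 and 185 CPM), Nkg7 and Cd244 held most of the expanded sum, so the similar sums do not describe the other markers. The part of NK cells in the levels of Tbx21, Eomes and Ifng was not tested. In a bulk library, fewer cells of a type and less RNA per cell cannot be told apart. The CD3 chain genes, which mark αβ as well as γδ T cells, lay within 2-fold in all 4 cases, with a summed 2231 and 2094 CPM. Of 7 markers listed for αβ T cells, 5 were lower by 2-fold or more and 1, Cd8a, was higher (0.929 and 9.13 CPM). The summed CPM of this list was 364 and 20.5, with Cd6 (199 and 4.14 CPM) the most abundant. The part of αβ T cells in the levels of the members was not tested.

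The cytokine gene Ifng (chromosome 10, 118441046 to 118445894, plus strand) had 3155 counts in the fresh and 2848 in the expanded library. The levels were 147 and 135 CPM, 1.08-fold lower after expansion (interval 1.03 to 1.14). Its log2 fold of -0.11 ran from -0.27 to -0.11 over the scalings and prior counts tried. Relative to Tbx21, Ifng was 1.73-fold higher in the expanded library (interval 1.58 to 1.88). Ifng can be induced within minutes to hours of stimulation. Of 22 immediate early and dissociation genes, 18 were lower by 2-fold or more in the expanded library and 1 was higher. The higher gene was Ier3 (4.23 and 48.6 CPM), and the 3 within 2-fold were Egr1, Egr3 and Nr4a3. The 22 genes stood at 33520 CPM in fresh and 1800.5 CPM in expanded cells in sum. Their part in the Ifng level was not tested.

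The long noncoding RNA gene next to Ifng was not at a similar level in both libraries. Tmevpg1, also known as NeST or Ifng-AS1 and known to favour Ifng transcription in type 1 T cells, starts 115 kb downstream of the Ifng start site on the opposite strand. It had 525 counts (24.4 CPM) in the fresh and 0 counts in the expanded library, a level 171-fold lower or more against a floor of 3 counts. Of the other neighbours within 500 kb, the kinase gene Dyrk2 was lower (164 and 15.6 CPM), Mdm1 was within 2-fold (14.9 and 13.4 CPM), and the cytokine gene Il22 had 1 count in each library. The neighbours named here and below were chosen after their values were seen.

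Both chains of the interferon γ receptor were lower in the expanded library. Ifngr1 (chromosome 10, 19591958 to 19610225), the ligand-binding chain, had 28513 counts in the fresh and 4862 in the expanded library. At 1325 and 231 CPM it was 5.73-fold lower (interval 5.56 to 5.91). Ifngr2 (chromosome 16, 91547094 to 91564007), the signal-competent chain, had 1527 and 47 counts. At 70.9 and 2.24 CPM it was 31.7-fold lower (interval 23.7 to 43.4) and ranked 402 of 11715 from the bottom by log2 fold.

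The 2 chains were not lower by the same factor. Per kb of gene length, Ifngr1 was 18.4 times the level of Ifngr2 in fresh and 102 times in expanded cells, a 5.54-fold change in the ratio (interval 4.14 to 7.58). In sum the receptor genes held 1396 CPM in fresh and 234 CPM in expanded cells. Ifngr1 in expanded cells was thus still above Eomes per kb by the deposited lengths, whereas Ifngr2 was the lowest member.

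Macrophages and B cells also carry the interferon γ receptor, and their markers were lower in the same library. Of 20 macrophage and monocyte markers, 18 were lower by 2-fold or more, their sum was 1729 and 257 CPM, and 11 were at 0 counts in the expanded library, among them Vcam1 (166 CPM in fresh cells) and Sirpa (126 CPM). All 11 measured B cell markers were lower, with sums of 954 and 4.66 CPM and 7 of 13 at 0 counts, among them Jchain. Of 9 dendritic cell markers 7 were lower and 2 higher (1347 and 409 CPM in sum). The higher ones were Irf8 (45.8 and 382 CPM) and Batf3 (3.21 and 12.1 CPM). In the expanded library Irf8 held most of the dendritic sum, and Ly6c2 (154 CPM) most of the macrophage sum. The part of these cells in the receptor levels was not tested.

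Ifngr2 lies in a cluster of receptor genes of the class II cytokine receptor family, and the members of that cluster were lower together. Ifnar2 and Ifnar1, the chains of the type I interferon receptor, start 174 and 61.9 kb upstream of Ifngr2, and Il10rb, the shared chain of the IL-10 receptor, starts 141 kb upstream. Ifnar2 stood at 145 CPM in fresh and 30.8 CPM in expanded cells, Ifnar1 at 273 and 68.9 CPM, and Il10rb at 155 and 27.0 CPM. Tmem50b, 50.6 kb downstream, was lower too (34.8 and 6.85 CPM), while Gart, an enzyme gene of purine synthesis 99.9 kb downstream, was higher (80.9 and 275 CPM). A930006K02Rik, 82.0 kb upstream, had 172 and 4 counts (7.99 and 0.190 CPM), a log2 fold of -4.83. Of 14 measured genes within 500 kb of Ifngr2, 6 were lower by 2-fold or more and 4 higher.

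In the wider receptor family, Il10ra and Il20rb were lower as well. Of 10 related genes in the table, 5 had a mean of at least 1 CPM. All 5 were lower by 2-fold or more in the expanded library (median log2 fold -1.99), as were 25.0% of all genes. They include the 3 cluster genes above, so this share is no separate support for a common direction. The others were Il10ra (164 and 41.2 CPM) and Il20rb (9.11 and 2.24 CPM). The log2 folds of all 5 lay between -2.51 and -1.98, a smaller drop than that of Ifngr2 (-4.93).

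Genes that carry the signal of the interferon γ receptor included no higher member. Of 10 such genes, 5 were lower by 2-fold or more and 5 within 2-fold (median -0.92), where 25.0% of all genes measured were lower. The kinase Jak1, which binds Ifngr1, was the most abundant at 1881 and 753 CPM, 2.50-fold lower in expanded cells. The feedback inhibitor Socs3 (509 and 12.1 CPM) and the factor Irf1 (678 and 97.9 CPM), an early target of the pathway, were furthest down. Stat3 (243 and 284 CPM) and the inhibitor Socs1 (49.3 and 71.6 CPM) were furthest up and both within 2-fold. The kinase Jak2, which binds Ifngr2 and was named after its value was seen, stood at 312 and 125 CPM.

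Genes that interferon γ is known to induce went less uniformly. Of 28 measured, 11 (39.3%) were lower by 2-fold or more in the expanded library and 1 was higher, with a median log2 fold of -0.46. All genes measured had 25.0% lower and 22.4% higher. The chemokine gene Cxcl9 stood at 3.90 CPM and 0 counts, at least 27.3-fold lower, and Ciita, the master factor of MHC class II genes, at 10.7 and 0.713 CPM. Both are also expressed in macrophages or B cells. The factor Irf8, also a dendritic cell marker above, was the higher gene (45.8 and 382 CPM, 8.36-fold). The GTPase gene Igtp stood at 84.2 and 166 CPM.

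Families within this list, formed after the values were seen, differed. Of 8 guanylate-binding protein genes (Gbp2 to Gbp9), 4 were lower by 2-fold or more and 4 within 2-fold (936 and 689 CPM in sum). Of 6 immunity-related GTPase genes, 2 were lower and 4 within 2-fold, and their sum was higher (328 and 402 CPM). All 6 genes of MHC class I processing (the immunoproteasome subunits Psmb8, Psmb9 and Psmb10, the transporter genes Tap1 and Tap2, and their activator Nlrc5) lay within 2-fold, at a summed 1441 and 1352 CPM. Over all 31 response genes the summed level was 4172 CPM in fresh and 3343 CPM in expanded cells.

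**Figure D2:**
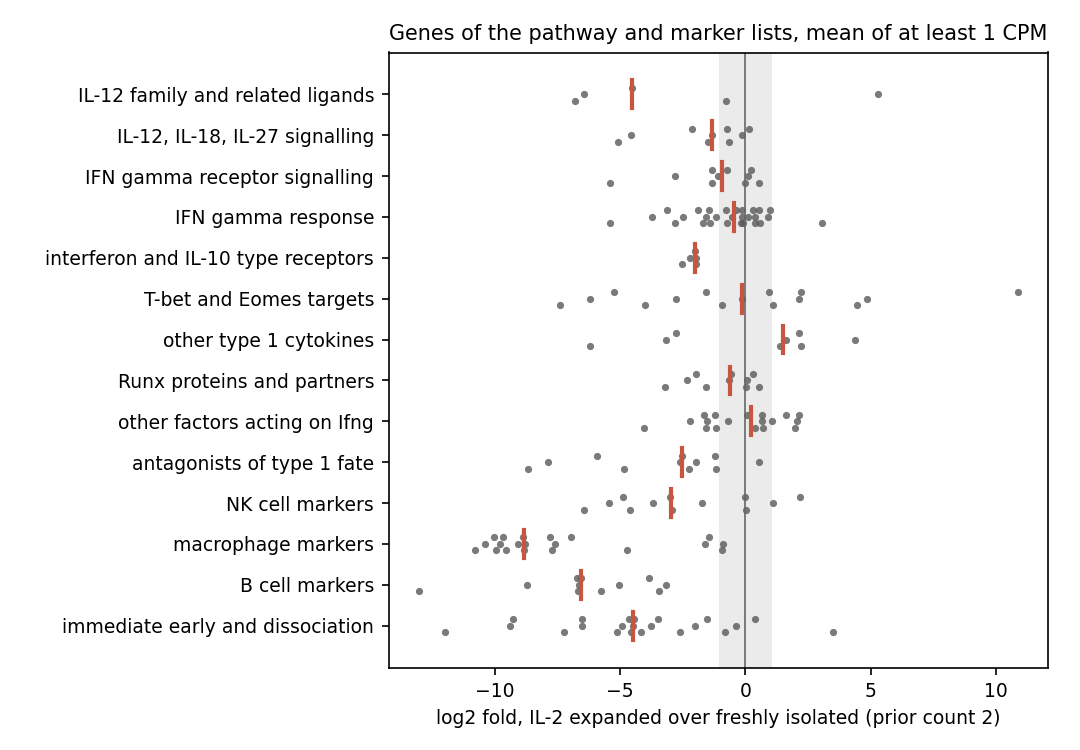
Log2 fold (expanded over freshly isolated) of each gene with a mean of at least 1 CPM in the pathway and marker lists, 1 point per gene, with the list median as a red bar and the range within 2-fold shaded. The interferon and IL-10 type receptors cluster near -1.99, the antagonists of type 1 fate lie mostly below -1, and the T-bet and Eomes targets spread in both directions.

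Both chains of the IL-12 receptor were higher in the expanded library. Il12rb1 (chromosome 8, 70808449 to 70821423, plus strand), the chain shared with the IL-23 receptor, had 1064 counts in fresh and 9766 in expanded cells. At 49.4 and 465 CPM it was 9.40-fold higher (interval 8.82 to 10.02). Il12rb2 (chromosome 6, 67292018 to 67376137, minus strand), the chain that recruits STAT4, had 666 and 22796 counts. At 30.9 and 1084 CPM it was 35.05-fold higher (interval 32.4 to 37.9) and ranked 168 of 11715 genes by log2 fold.

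The order of the chains differed between the libraries. The ratio of Il12rb2 to Il12rb1 per kb was 0.591 in fresh and 2.20 in expanded cells, 3.73-fold higher (interval 3.37 to 4.13), so the more abundant chain was Il12rb1 in fresh cells and Il12rb2 after expansion. Together the chains held 80.4 and 1549 CPM. Set against the other receptor, Ifngr1 per kb was 36.6 times Il12rb1 in fresh cells and 0.680 times in expanded cells. Ifngr2 was 3.36 times Il12rb2 in fresh cells and 0.00302 times in expanded cells, a 1111-fold change (interval 821 to 1534).

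The IL-23 receptor chain gene next to Il12rb2 had the opposite direction. Il23r, which pairs with Il12rb1 to bind IL-23, starts 116 kb upstream of Il12rb2 and stood at 12.8 CPM in fresh and 0.285 CPM in expanded cells. Of 6 measured genes within 500 kb of Il12rb2, 2 were higher and 4 lower, with Gadd45a at 27.2 and 4.95 CPM. The RNA-binding protein gene Serbp1 on the other side stood at 537 and 1335 CPM. In GENCODE M21, exons of Serbp1 on the opposite strand share 1519 bases with exons of Il12rb2, of which 819 lie inside the span deposited for Il12rb2. The deposited spans of these genes do not overlap, and without a stated use of strand the share of Serbp1 reads in the Il12rb2 count is unknown. Serbp1 had 11568 counts in the fresh library, where Il12rb2 had 666.

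**Figure D3:**
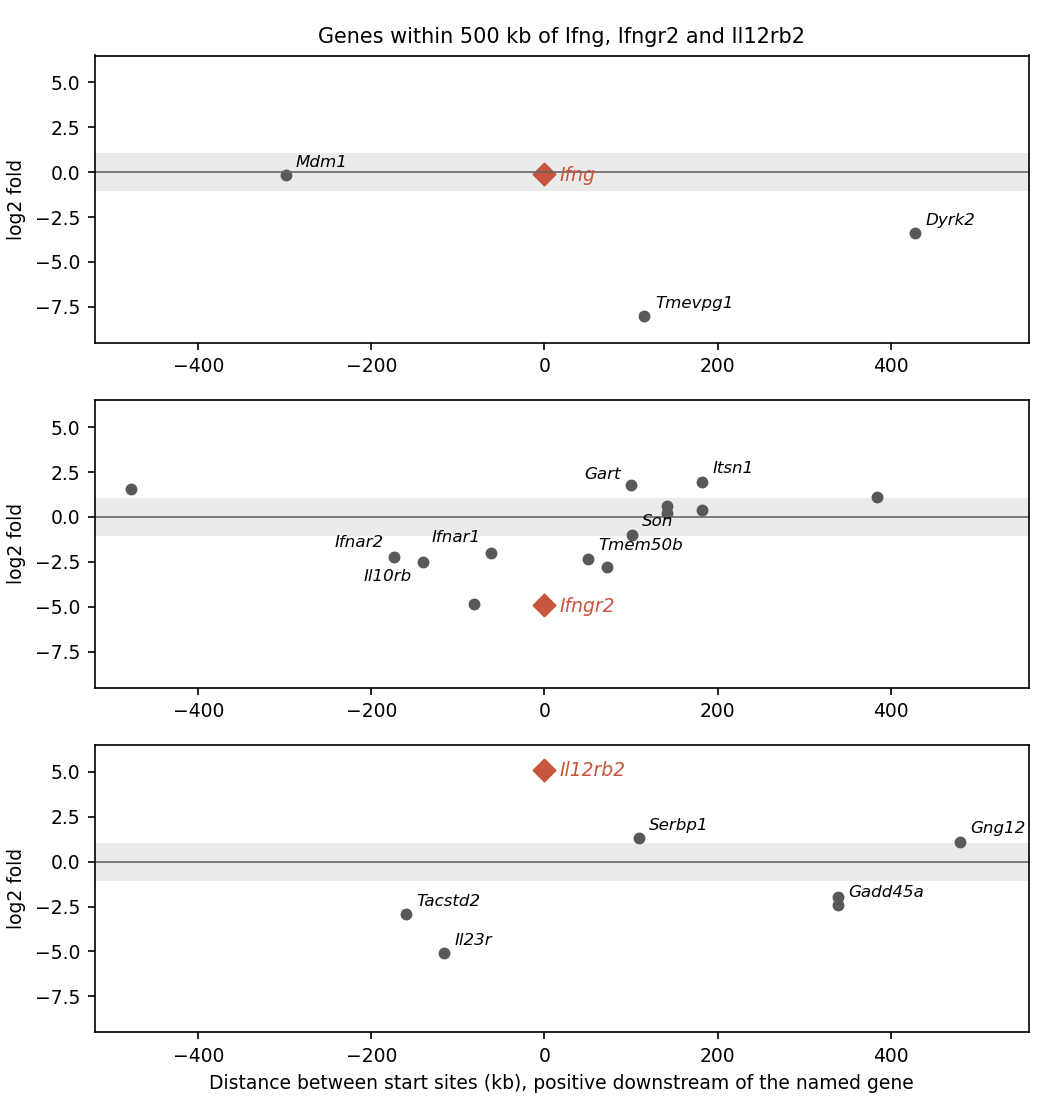
Log2 fold (expanded over freshly isolated) of genes averaging 1 CPM or more within 500 kb of Ifng, Ifngr2 and Il12rb2 (red diamonds), against the distance between start sites in kb, with the range within 2-fold shaded. Tmevpg1 lies far below Ifng, the receptor genes Ifnar2, Il10rb and Ifnar1 lie below 0 with Ifngr2, and Il23r lies opposite to Il12rb2.

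Downstream and parallel to the IL-12 receptor, no gene was past 2-fold higher. Of 9 genes of IL-12, IL-18, IL-27 and IL-21 signalling, 5 were lower by 2-fold or more and 4 within 2-fold (median -1.32). Il6st, which encodes the shared chain gp130, stood at 202 and 8.42 CPM and was furthest down after Il23r. Il18rap, a chain of the IL-18 receptor, at 231 and 207 CPM, and Il21r, at 275 and 306 CPM, were furthest up. The other IL-18 receptor chain gene, Il18r1, was named after its value was seen. It stood at 377 and 86.2 CPM, 4.37-fold lower in expanded cells. Stat4, the factor that IL-12 activates, stood at 367 and 219 CPM, 1.68-fold lower (the ratio's interval was 0.575 to 0.619).

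The IL-12 family cytokines, IL-15 and IL-18 are made mainly by myeloid cells, and their genes were low in both libraries. Il12b, which encodes the p40 subunit, had 10.3 CPM in fresh cells and no count after expansion, at least 72.3-fold lower. Il15, whose product signals through receptor chains shared with IL-2, had 8.08 CPM and 0 counts, at least 56.6-fold lower, and Ebi3, a subunit of IL-27, stood at 4.69 and 2.66 CPM. Il23a, which encodes the p19 subunit of IL-23, had 0 counts in fresh cells against 3.62 CPM in expanded cells, at least 25.9-fold higher. Of 5 such cytokine genes measured, 3 were lower and 1 was higher.

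Compared per kb of the deposited gene length, the order of the members changed. In fresh cells it ran from Ifngr1 (633 CPM per kb) over Ifng (122), Eomes (88.8), Runx3 (63.1), Tbx21 (41.7), Ifngr2 (34.4), Il12rb1 (17.3) and Il12rb2 (10.2) to Hlx (0.824). In expanded cells it ran from Il12rb2 (358 CPM per kb) over Il12rb1 (163), Ifng (112), Ifngr1 (111), Eomes (86.8), Runx3 (65.0), Tbx21 (22.3) and Hlx (3.68) to Ifngr2 (1.08). The neighbours Ifng and Ifngr1 in expanded cells had overlapping exact Poisson intervals (108 to 117 and 107 to 114 CPM per kb). With exon lengths from GENCODE M21 instead, Eomes (87.2) came before Ifngr1 (81.2) in expanded cells and the rest of the order was the same in both libraries. The spread between samples is unknown, so no other neighbours can be called different beyond counting error.

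**Figure D4:**
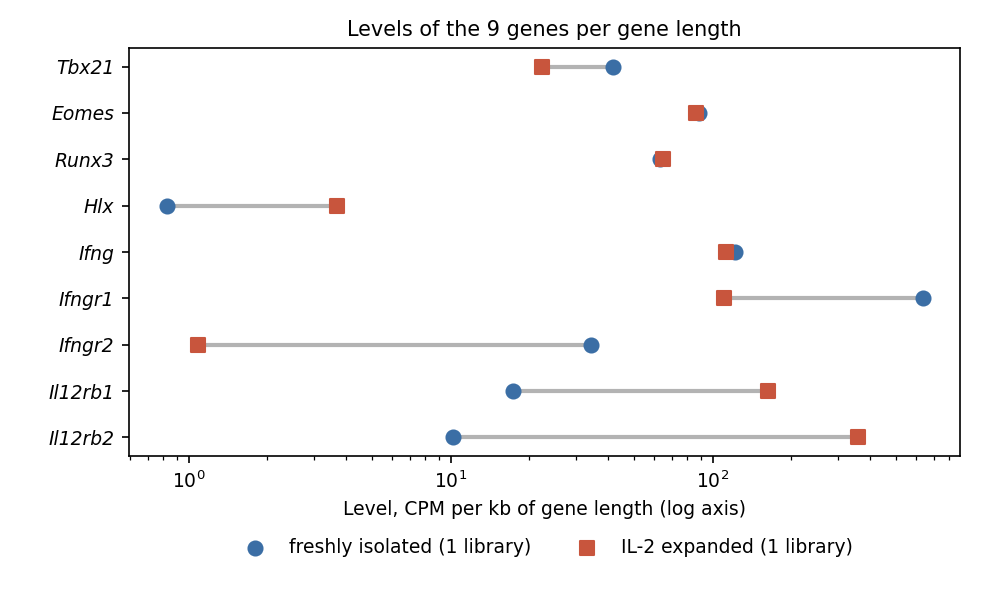
Level of each of the 9 genes in CPM per kb of the deposited gene length, on a log axis, in the freshly isolated (blue circles) and the expanded library (red squares), 1 library each. The points of Eomes, Runx3 and Ifng nearly coincide, those of Ifngr1 and Ifngr2 move left and those of Hlx, Il12rb1 and Il12rb2 move right.

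Genes that T-bet or Eomes are known to act on went both ways. Of 15 measured, 6 were higher by 2-fold or more, 6 lower and 3 within 2-fold (median -0.15). This was 40% in each direction, against 22.4% higher and 25.0% lower among all genes measured. The granzyme gene Gzmb (15.2 and 28245 CPM) and the inhibitory receptor gene Klrg1 (0.604 and 20.2 CPM) were furthest up. The egress receptor gene S1pr5 (23.8 and 0.0476 CPM) and the chemokine gene Ccl5 (962 and 13.03 CPM) were furthest down. Tbx21 and Eomes themselves lay within 2-fold.

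Other cytokine genes of type 1 cells stood further apart than Ifng did. Of 8 measured, 5 were higher by 2-fold or more and 3 lower, and none lay within 2-fold. Ccl3, Ccl4, Ccl5 and Xcl1 also belong to the list of T-bet and Eomes targets above, so the lists are not separate observations. Csf2, which encodes GM-CSF, stood at 1.81 and 38.9 CPM and Ccl3 at 27.0 and 124 CPM. Ltb, a lymphotoxin chain, stood at 334 and 36.6 CPM. The summed CPM was lower in the expanded library (1499 and 420), with Ccl5 alone at 962 in the fresh one.

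Of the remaining T-box genes, most were at or near 0. In a list of 16 T-box genes, 8 had 0 counts in the fresh and 10 in the expanded library, and 4 had a mean of at least 1 CPM. These were Tbx21, Eomes, the MYC-network gene Mga (160 and 119 CPM) and Tbx6 (7.67 and 0.0951 CPM). Of 10 Runx proteins, partners and related factors, 4 were lower by 2-fold or more, none higher and 6 within 2-fold (median -0.61). The share lower was 40%, against 25.0% of all genes measured. Cbfb, the shared partner of Runx factors, stood at 209.8 and 308 CPM, Zbtb7b at 41.9 and 51.9 CPM, and the corepressor genes Tle3 at 341 and 231 CPM, Tle4 at 167 and 32.8 CPM and Cbfa2t3 at 15.2 and 1.57 CPM.

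Factors listed as opposing the type 1 programme were lower by 2-fold or more in 10 of 11 cases, with none higher (median log2 fold -2.54). This was 90.9%, against 25.0% of all genes measured. The list was written with earlier results of these data known, so this share is no independent support. Tcf7, which encodes TCF-1 of naive and memory T cells, stood at 1932 and 8.18 CPM. Id3, which restrains E proteins, stood at 14.5 and 6.37 CPM, and the gene within 2-fold was Foxp3 (26 and 38 counts). Whether each listed factor opposes the programme in γδ T cells was not tested. The summed level of the list was 3152 CPM in fresh and 267 CPM in expanded cells.

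Other factors that act on Ifng transcription had no common direction. Of 18 measured, 5 (27.8%) were higher by 2-fold or more, 7 (38.9%) lower and 6 within 2-fold (median 0.22). Among all genes measured 22.4% were higher and 25.0% lower. The demethylase gene Kdm6b (660 and 39.5 CPM) and the Ikaros-family gene Ikzf3 (331 and 72.4 CPM) were furthest down. Id2, an inhibitor of E proteins (349 and 1537 CPM), and the methyltransferase gene Ezh2 (43.8 and 183 CPM) were furthest up. Ets1, an Ets factor that cooperates with T-bet, was the most abundant by mean at 1609 and 505 CPM. Proliferation genes, such as Ccna2 (4.32 and 299.5 CPM), were higher by 2-fold or more in 11 of 12 cases.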

How the data were processed

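The deposited table holds read counts per gene, not normalized by the authors, for 1 library per group (20379385 and 22204099 counts), with gene spans and a gene length in kb. Per the submitters' processing notes, the tools were STAR 2.6.0, HTSeq 0.6.0, bcl2fastq 2.18.0.12 and edgeR 3.28.1, and the build was mm10 (GRCm38). Annotation release and use of strand are not given in the sources used here. Reads of genes that overlap on opposite strands, and of near-identical copies, may be misassigned.

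Library sizes were scaled by TMM in edgeR 4.0.16 (R 4.3.3), with factors of 1.06 (freshly isolated) and 0.947 (expanded). Log2 folds have a prior count of 2, and printed folds are plain CPM ratios. Where 1 library had 0 counts and the other more than 3, the printed fold is a bound against a floor of 3 counts. Sums, means and log2 folds kept the 0 counts. Genes averaging 1 CPM or more were compared. With 1 library per group no p-value was computed. Ratios within a library were compared by the conditional odds ratio (scipy 1.17.1). The calculation was run on simulated Poisson counts of 11715 genes, with 200 changed 8-fold. There, 95.8% of the intervals held the true fold. The simulation had no spread between samples, so it says nothing on that spread in real libraries.

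Alternatives were 5 scalings (DESeq2 1.42.0 size factors among them), 2 prior counts and 2 filters. Besides the 9 members, the text names the 2 genes furthest up, the 2 furthest down and the most abundant gene of the lists described, and of the smaller marker lists a selection. Genes outside this rule are said to be so, or are single markers or relatives of a member. Some items that the rule would name are not reported here. Members and lists were chosen with earlier results of these data known.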

Additional observations from a re-analysis of the deposited data

How the results depend on the processing

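The number of members at least 2-fold higher was 3 under 8 of 9 alternatives and 2 with a minimum mean of 5 CPM, which leaves out Hlx. The number at least 2-fold lower was 2 under 8 of 9 and 3 when libraries were scaled by total count, which takes Tbx21 to a log2 fold of -1.06. Total count scaling moved the median log2 fold of all genes by -0.16. Over the alternatives 2233 to 3328 genes were at least 2-fold higher and 2098 to 4341 lower. Log2 folds ranged from 4.97 to 5.13 for Il12rb2, 3.07 to 3.23 for Il12rb1, 1.95 to 2.15 for Hlx, -2.68 to -2.52 for Ifngr1 and -5.08 to -4.85 for Ifngr2. None of these 5 changed sign. Runx3 did in 4 of 7 alternatives (-0.12 to 0.04), and Eomes ran from -0.19 to -0.03. Ratios between members do not depend on the scaling. Scaling by Cd3d, Cd3e and Cd3g gave -0.08 for Eomes and -0.95 for Tbx21. At 47 counts, Ifngr2 in the expanded library sets the width of its interval. No paired analysis was possible because each group has 1 library.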

Other observations

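The surroundings of the other members showed no common direction. Of 19 measured genes within 500 kb of Tbx21, 7 were higher by 2-fold or more after expansion and none lower (median log2 fold 0.40), among them the importin gene Kpnb1 at 376 and 891 CPM (freshly isolated and expanded), while Tbx21 itself was 1.87-fold lower. Within the same distance of Runx3, 5 of 11 genes were lower and 2 higher, with the chloride channel gene Clic4 at 50.3 and 319 CPM. Around Il12rb1, 20 of 29 genes lay within 2-fold, 7 were lower and 2 higher (median 0.01). The AP-1 gene Jund, 111 kb upstream of Il12rb1, stood at 1890 and 467 CPM. Il22ra2 and Il20ra, relatives of Ifngr1 that start 30.1 and 121 kb downstream of it, had at most 4 counts in either library. These neighbours were chosen after their values were seen.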
